A study of Mus musculus with 2 samples.

Results

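The genes described here are 9 parts of the machinery through which brain tissue receives and clears acetylcholine: the muscarinic receptor genes Chrm1, Chrm2, Chrm3 and Chrm4, the nicotinic receptor subunit genes Chrna4, Chrna5, Chrna7 and Chrnb2, and Ache, the gene of acetylcholinesterase. They were taken as a list of symbols, and all 9 were found among the 55536 annotated genes of the deposited gene tables. Together they held 14603 reads in replicate 1 and 14880 reads in replicate 2. Total RNA had been sequenced from the left cerebral cortex of 2 adult male mice labelled 5xFAD/CAST and described as a cross of 5xFAD with CAST, aged 8 to 10 months, which form a single group with biological replicates 1 and 2. 5xFAD is a transgenic line that carries human genes with mutations of familial Alzheimer disease under the neuronal Thy1 promoter and deposits amyloid in the cortex, and CAST is an inbred strain derived from wild mice. All samples share this genotype, and mice free of the transgenes were not analysed here. The values are therefore levels per animal and differences between animals, with no p-value.

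Acetylcholine reaches the cortex mainly along axons of basal forebrain neurons, whose cell bodies lie outside it, and to a lesser extent from local interneurons. Muscarinic receptors are G protein-coupled: those of Chrm1 and Chrm3 signal through Gq and raise excitability, whereas those of Chrm2 and Chrm4 signal through Gi and lower cyclic AMP. Nicotinic receptors are ion channels of 5 subunits, some of mixed composition and some, like that of Chrna7, made of copies of a single subunit. Acetylcholinesterase ends the signal by splitting the transmitter.

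Library size was 33925221 reads on annotated genes in replicate 1 and 32380330 in replicate 2, and edgeR's biological coefficient of variation was 6.35% over 18161 genes. Markers of cortical excitatory neurons were high in both libraries, with 10 of 10 detected and a summed level of 2190 TPM in replicate 1 and 2371 TPM in replicate 2. TPM is a level per transcript length, so that genes can be set side by side. Markers of neighbouring regions were present as well. Striatal markers, 10 of 10 detected, summed to 639 TPM in replicate 1 and 748 TPM in replicate 2, thalamic and habenular markers, 6 of 10 detected, to 58.0 and 41.9 TPM, and choroid plexus markers, 5 of 10 detected, to 564 and 111 TPM. By the ratio of scaled reads, all 10 choroid plexus markers were at least 2-fold higher in replicate 1. Hippocampal markers, 8 of 10 detected, summed to 145 TPM in replicate 1 and 154 TPM in replicate 2. Of these, 3 were at least 25% higher in replicate 1 by the ratio of scaled reads and none in replicate 2.

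All 9 genes were detected, at 1 TPM or more in both animals, against 13070 of 22015 protein-coding genes of the nuclear genome (59.4%). Chrm1 had the highest level of the 9 and Chrna5 the lowest. From high to low the order was Chrm1, Ache, Chrm4, Chrm3, Chrna4, Chrnb2, Chrna7, Chrm2 and Chrna5. The ranges over the 2 animals overlapped between Ache and Chrm4 and between Chrm4 and Chrm3, while those of the other neighbours did not. Within each animal the order was the same: Ache over Chrm4 was a log2 ratio of 0.38 in replicate 1 and 0.09 in replicate 2, and Chrm4 over Chrm3 0.09 and 0.41. In bulk tissue a lower level of a gene can mean fewer cells that express it or less RNA per cell, and these cannot be told apart.

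**Figure D1:**
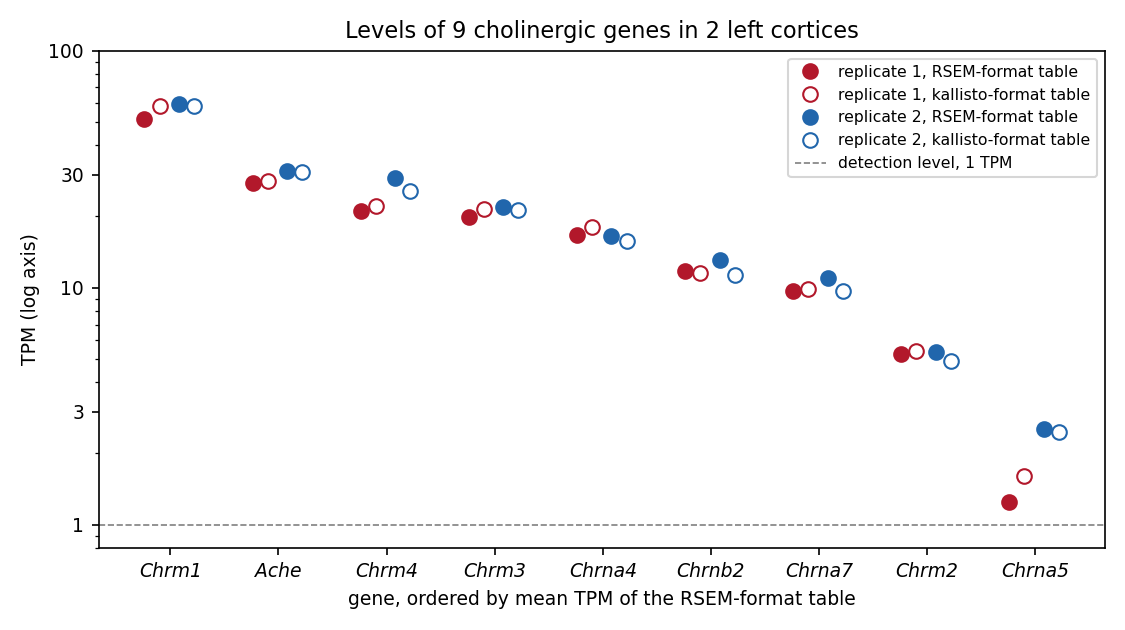
TPM of each gene on a log axis, with genes ordered by mean level. Filled circles are the RSEM-format gene table, open circles the kallisto-format table summed per gene, red is replicate 1 and blue replicate 2, and the dashed line marks 1 TPM. Chrm1 stands above all others in both animals and both tables, and Chrna5 is the lowest, at 1.2 TPM in replicate 1 and 2.53 TPM in replicate 2.

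Among the muscarinic receptors, Chrm1 (ENSMUSG00000032773.9, mm10 chromosome 19, 8663789 to 8683587, plus strand) encodes the M1 receptor, the main muscarinic receptor of cortical pyramidal neurons. It was at 51.7 TPM in replicate 1 and 59.8 TPM in replicate 2, from 5769 and 6065 reads, a mean of 55.7 ± 5.72 TPM (SD, n = 2). Its level was above that of 86.3% of the detected protein-coding genes. Chrm3 (ENSMUSG00000046159.16, chromosome 13, 9875486 to 10360847, minus strand), the other Gq-coupled member, was at 19.8 TPM in replicate 1 and 22.0 TPM in replicate 2, from 1870 and 1736 reads, a mean of 20.9 ± 1.53 TPM. Chrm1 exceeded Chrm3 in both animals.

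Chrm4 (ENSMUSG00000040495.4, chromosome 2, 91927249 to 91928688, plus strand) encodes the M4 receptor, a Gi-coupled receptor best known from projection neurons of the striatum. It was at 21.1 TPM in replicate 1 and 29.2 TPM in replicate 2, from 707 and 871 reads, a mean of 25.1 ± 5.67 TPM. Chrm2 (ENSMUSG00000045613.9, chromosome 6, 36388084 to 36528414, plus strand), whose M2 receptor acts in part as an autoreceptor on cholinergic terminals, was at 5.26 TPM in replicate 1 and 5.38 TPM in replicate 2, from 733 and 630 reads. It was the lowest muscarinic member, at 5.32 ± 0.0849 TPM, and only 21.7% of the detected protein-coding genes were lower. Chrm1 exceeded Chrm2 9.82-fold in replicate 1 and 11.1-fold in replicate 2.

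The 4 muscarinic genes summed to 97.9 TPM in replicate 1 and 116 TPM in replicate 2. Chrm1 made up 52.8% of that sum in replicate 1 and 51.4% in replicate 2, Chrm4 21.6% and 25.1%, Chrm3 20.2% and 18.9%, and Chrm2 5.38% and 4.63%. The Gq-coupled pair Chrm1 and Chrm3 therefore stood above the Gi-coupled pair Chrm2 and Chrm4 in both animals, 2.71-fold in replicate 1 and 2.37-fold in replicate 2. The proteins fall into the same pairs by sequence. Translated from the GENCODE M21 transcripts, Chrm1 and Chrm3 are identical at 60.8% of aligned residues and Chrm2 and Chrm4 at 61.7%, while the 4 pairs across the classes lie between 49.1% and 51.9%.

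Among the nicotinic subunits, Chrna4 and Chrnb2 encode the α and β subunits that together form the main high-affinity nicotine binding site of the brain. Chrna4 (ENSMUSG00000027577.14, chromosome 2, 181018380 to 181043546, minus strand) was at 16.8 TPM in replicate 1 and 16.6 TPM in replicate 2, from 1576 and 1551 reads, a mean of 16.7 ± 0.106 TPM. Chrnb2 (ENSMUSG00000027950.7, chromosome 3, 89746195 to 89764632, minus strand) was at 11.7 TPM in replicate 1 and 13.1 TPM in replicate 2, from 1834 and 1836 reads, a mean of 12.4 ± 0.976 TPM. Chrna4 exceeded Chrnb2 1.43-fold in replicate 1 and 1.27-fold in replicate 2, and 1.56-fold and 1.39-fold in the kallisto-format table. The exons of Chrnb2 share 1365 bases, 16.3% of its exonic length, with exons of the RNA-editing gene Adar on the opposite strand. The strand setting of the authors' counting is not given in the sources used here, so reads of that stretch may be divided between the genes in an uncertain way. Adar was at 52.7 TPM in replicate 1 and 61.0 TPM in replicate 2, above Chrnb2 in both.

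Chrna7 (ENSMUSG00000030525.8, chromosome 7, 63098692 to 63212569, minus strand), the subunit of the calcium-permeable homomeric receptor that α-bungarotoxin blocks, was at 9.69 TPM in replicate 1 and 10.98 TPM in replicate 2, from 485 and 492 reads, a mean of 10.3 ± 0.912 TPM. Chrna5 (ENSMUSG00000035594.10, chromosome 9, 54980880 to 55007779, plus strand) encodes an accessory subunit that joins some receptors of Chrna4 and Chrnb2 and is known from deep-layer pyramidal neurons. It was at 1.2 TPM in replicate 1 and 2.53 TPM in replicate 2, from 64 and 107 reads, a mean of 1.89 ± 0.905 TPM. Only 4.87% of the detected protein-coding genes were lower than Chrna5. Chrna4 exceeded it 13.4-fold in replicate 1 and 6.56-fold in replicate 2, a spread that comes from Chrna5, since Chrna4 was nearly equal in the animals.

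The α subunits are defined by a pair of adjacent cysteines in the acetylcholine-binding loop. The coding sequences around it are shown because they separate the 3 α members from Chrnb2, with the cysteine codons in capitals, 5′ to 3′, from GENCODE M21 transcripts in mm10. They lie at chr2:181029257-181029304 on the minus strand, chr9:55004596-55004643 on the plus strand, chr7:63106137-63106184 on the minus strand and chr3:89761326-89761373 on the minus strand, in the order given.
Chrna4-201: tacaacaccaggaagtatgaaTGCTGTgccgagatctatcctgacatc
Chrna5-201: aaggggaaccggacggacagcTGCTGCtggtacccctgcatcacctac
Chrna7-201: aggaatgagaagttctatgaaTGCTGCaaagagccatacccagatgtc
Chrnb2-201: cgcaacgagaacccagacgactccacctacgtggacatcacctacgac
Each α member has exactly 1 adjacent cysteine pair in its translated sequence, at residues 227 and 228 in Chrna4, 205 and 206 in Chrna5, and 212 and 213 in Chrna7. Chrnb2 has 0 such pairs. Its alignment to Chrna4 leaves 3 Chrna4 residues at this place without a partner. Chrna7 was the most distant of the 4, with 37.4% to 41.3% of aligned residues identical to the others. Chrna4 shared 55.8% with Chrna5 and 54.1% with Chrnb2.

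The 4 nicotinic genes summed to 39.4 TPM in replicate 1 and 43.2 TPM in replicate 2. Chrna4 made up 42.5% of the sum in replicate 1 and 38.4% in replicate 2, Chrnb2 29.8% and 30.3%, Chrna7 24.6% and 25.4%, and Chrna5 3.17% and 5.85%. The muscarinic sum exceeded the nicotinic sum 2.48-fold in replicate 1 and 2.69-fold in replicate 2, a mean log2 ratio of 1.37 ± 0.08 (SD, n = 2). Chrm1 carries most of that gap: without it the mean log2 ratio was 0.31, and without Chrnb2 it was 1.89. Since 5 nicotinic subunits make up a receptor and a muscarinic receptor is a single protein, a ratio of transcripts is not a ratio of receptors.

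**Figure D2:**
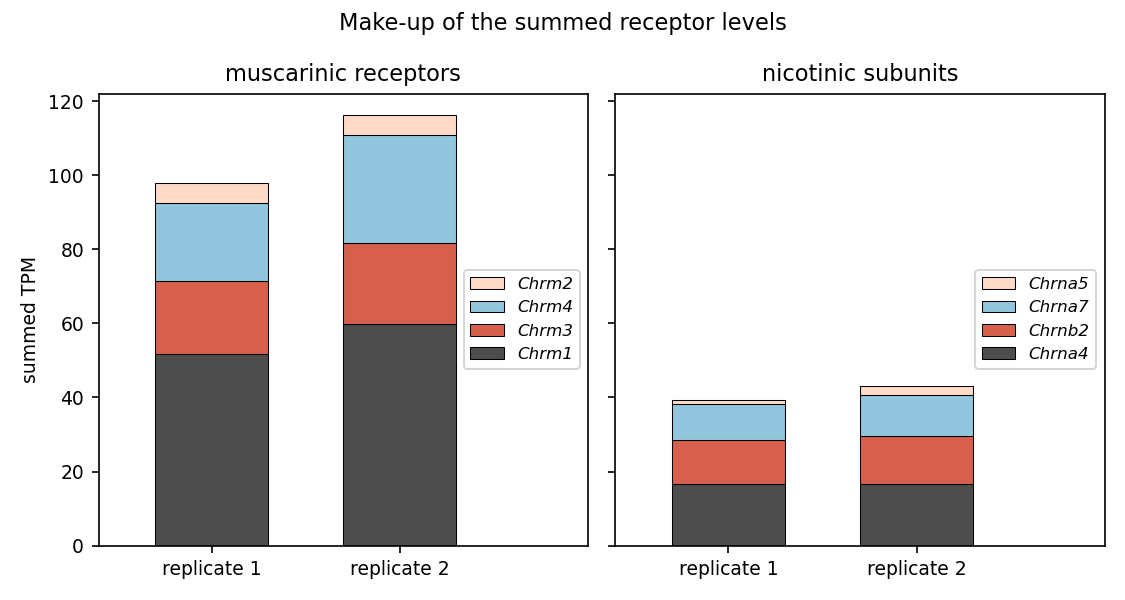
Summed TPM of the muscarinic receptor genes (left panel) and the nicotinic subunit genes (right panel) on a shared axis that starts at 0, with replicate 1 left of replicate 2 in each panel and 1 colour per gene. Chrm1 fills about as much of the muscarinic bar as the other members together, 52.8% in replicate 1 and 51.4% in replicate 2, and the nicotinic bars are less than 50% of the height.

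Ache (ENSMUSG00000023328.14, chromosome 5, 137287519 to 137294466, plus strand) was at 27.6 TPM in replicate 1 and 31.0 TPM in replicate 2, from 1565 and 1592 reads, a mean of 29.3 ± 2.43 TPM. It was higher than 72.0% of the detected protein-coding genes. Bche, the other cholinesterase, was at 1.48 TPM in replicate 1 and 1.59 TPM in replicate 2, so Ache exceeded it 18.6-fold and 19.5-fold. Prima1, the protein that anchors acetylcholinesterase in neuronal membranes, was at 7.04 TPM in replicate 1 and 6.80 TPM in replicate 2. Colq, the collagen tail that anchors the enzyme at the neuromuscular junction, was at 0.35 TPM in replicate 1 and 0.36 TPM in replicate 2 and was not detected by the rule of 1 TPM.

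Between the animals, no member differed by the rule of at least 2-fold with 10 reads in a library and a counting interval, at an error of 0.1%, that excludes equal levels. The rule called 1.22% of the 19484 genes tested. By the looser rule of a level at least 25% higher in either animal, 2 of 9 members differed, Chrm4 and Chrna5, both higher in replicate 2, beside 22.9% of the genes tested, which is near the members' share. The 95% counting interval excluded equal levels for 4 of 9 members, Chrm1, Chrm2, Chrm4 and Chrna5, beside 26.3% of the genes tested. The median log2 ratio of replicate 1 over replicate 2 was -0.06 over the 9 members, with 7 negative and 2 positive, and 0.00 over all genes tested. With 1 animal on each side such differences describe these libraries only.

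**Figure D3:**
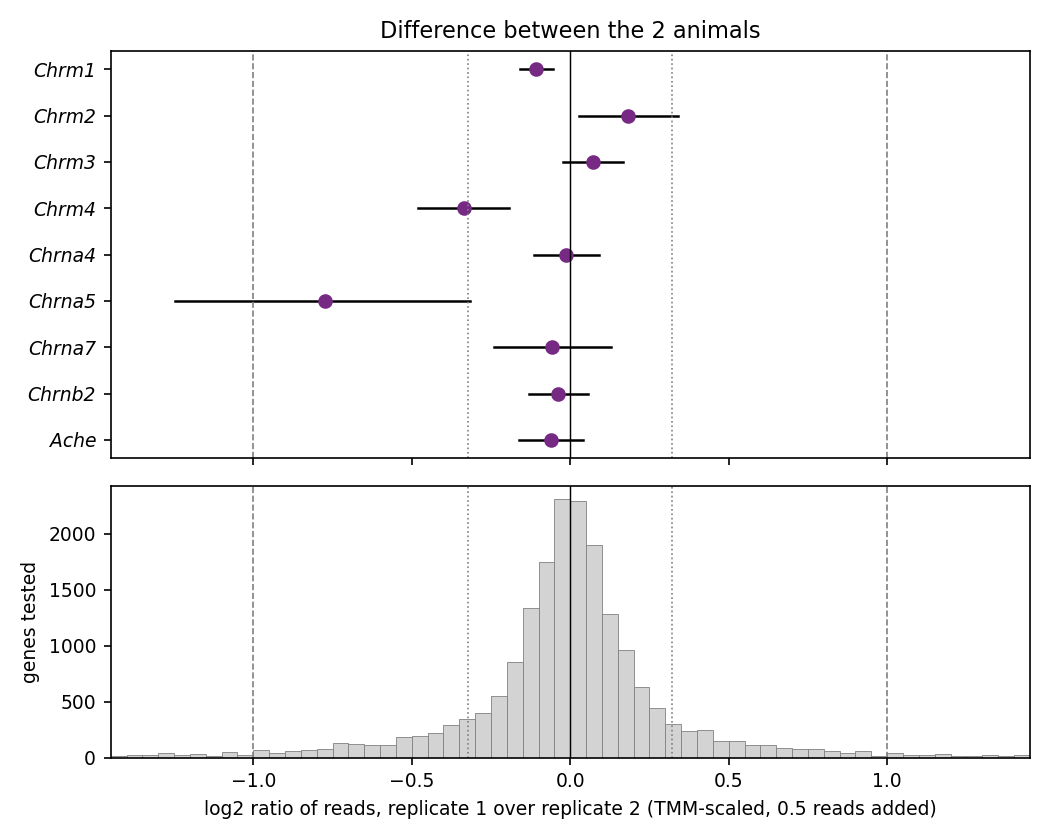
Log2 ratio of TMM-scaled reads, replicate 1 over replicate 2, for each gene with its 95% counting interval (upper panel), and the number of genes tested in each bin of the same ratio (lower panel; genes beyond the axis are not drawn). Dotted lines mark a level 25% higher in either animal and dashed lines 2-fold. Chrm4 at -0.34 and Chrna5 at -0.77 lie left of the dotted line, and the other 7 members lie between the dotted lines.

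Chrna5 had 64 reads in replicate 1 and 107 in replicate 2, a log2 ratio of -0.77 (95% interval -1.25 to -0.32), or 1.71-fold higher in replicate 2. With so few reads the interval runs from about 25% to more than 2-fold higher in replicate 2. Layer 6 markers, the layer in which the subunit is best known, summed to 54.5 TPM in replicate 1 and 55.4 TPM in replicate 2, with 4 of 6 higher in replicate 1 by read ratio and 2 in replicate 2. The median log2 ratio of these layer 6 markers was 0.02. Only Ntsr1 among them was at least 25% apart, with 271 reads in replicate 1 and 344 in replicate 2. Its log2 ratio was -0.38 (95% interval -0.61 to -0.15). Thalamic and habenular markers summed to 58.0 TPM in replicate 1 and 41.9 TPM in replicate 2, with 7 of 10 higher in replicate 1 by read ratio and 3 in replicate 2. Of the habenular markers among them, Gng8 was at 1.04 TPM in replicate 1 and 1.52 TPM in replicate 2. Gpr151 was at 0.29 and 0.32 TPM, and Pou4f1 at 0.11 and 0.03 TPM. By the rule of 1 TPM Gng8 was detected, as was Chrna5, whereas Gpr151 and Pou4f1 were not. Gng8 had 16 reads in replicate 1 and 19 in replicate 2, Gpr151 12 and 12, and Pou4f1 7 and 3. The log2 ratio of Gng8 was -0.28, with a 95% interval of -1.34 to 0.75 that includes equal levels. The part of these tissues in the Chrna5 result was not tested.

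Chrm4 had 707 reads in replicate 1 and 871 in replicate 2, a log2 ratio of -0.34 (95% interval -0.48 to -0.19), or 1.26-fold higher in replicate 2. Of the 10 striatal markers, 9 were also higher in replicate 2 by read ratio, none by 25% or more, with a median log2 ratio of -0.05. The cortical excitatory markers were alike, with 8 of 10 higher in replicate 2, none by 25% or more, and a median of -0.04. The striatal share in the Chrm4 result was not tested. In the kallisto-format table the log2 ratio of Chrm4 was -0.28, short of 25%.

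Chrm1 was 1.08-fold higher in replicate 2 by reads, a log2 ratio of -0.11 (95% interval -0.16 to -0.06), and Chrm2 was higher in replicate 1, with a log2 ratio of 0.18 (95% interval 0.03 to 0.34). The remaining 5 members had intervals that include equal levels, with log2 ratios of -0.06 for Ache and Chrna7, -0.04 for Chrnb2, -0.01 for Chrna4 and 0.07 for Chrm3. The bounds of these 5 intervals stay between -0.24 and 0.17. For Chrm2, Chrm3 and Chrna4 the direction depended on the scale. Chrm2 and Chrm3 were higher in replicate 2 by TPM and in replicate 1 by read ratio, and Chrna4 the other way round. With TPM rescaled to nuclear protein-coding genes, Chrm2 was at 12.5 in replicate 1 and 11.9 in replicate 2. On that scale Chrm3 was at 47.1 in replicate 1 and 48.6 in replicate 2, and Chrna4 at 39.8 and 36.7.

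Most members were carried by transcripts with a complete coding sequence. The deposited transcript table gives the percent of its gene's TPM that each transcript takes, and transcripts with a complete coding sequence took between 83.4% and 100% in every member and animal. Chrm2 (Chrm2-202, 100% in replicate 1 and 93.5% in replicate 2), Chrna7 (Chrna7-201, 96.5% and 95.8%) and Chrnb2 (Chrnb2-201, 93.7% and 95.1%) were each dominated by 1 transcript. Chrm4 has 1 annotated transcript, Chrm4-201, a single exon of 1440 bases that is all coding sequence and stop codon. The RefSeq gene model in the same build spans 7647 bases, 5060 upstream and 1147 downstream of it, so reads from the untranslated parts of Chrm4 were not counted and its 1578 summed reads come from the coding exon alone.

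**Figure D4:**
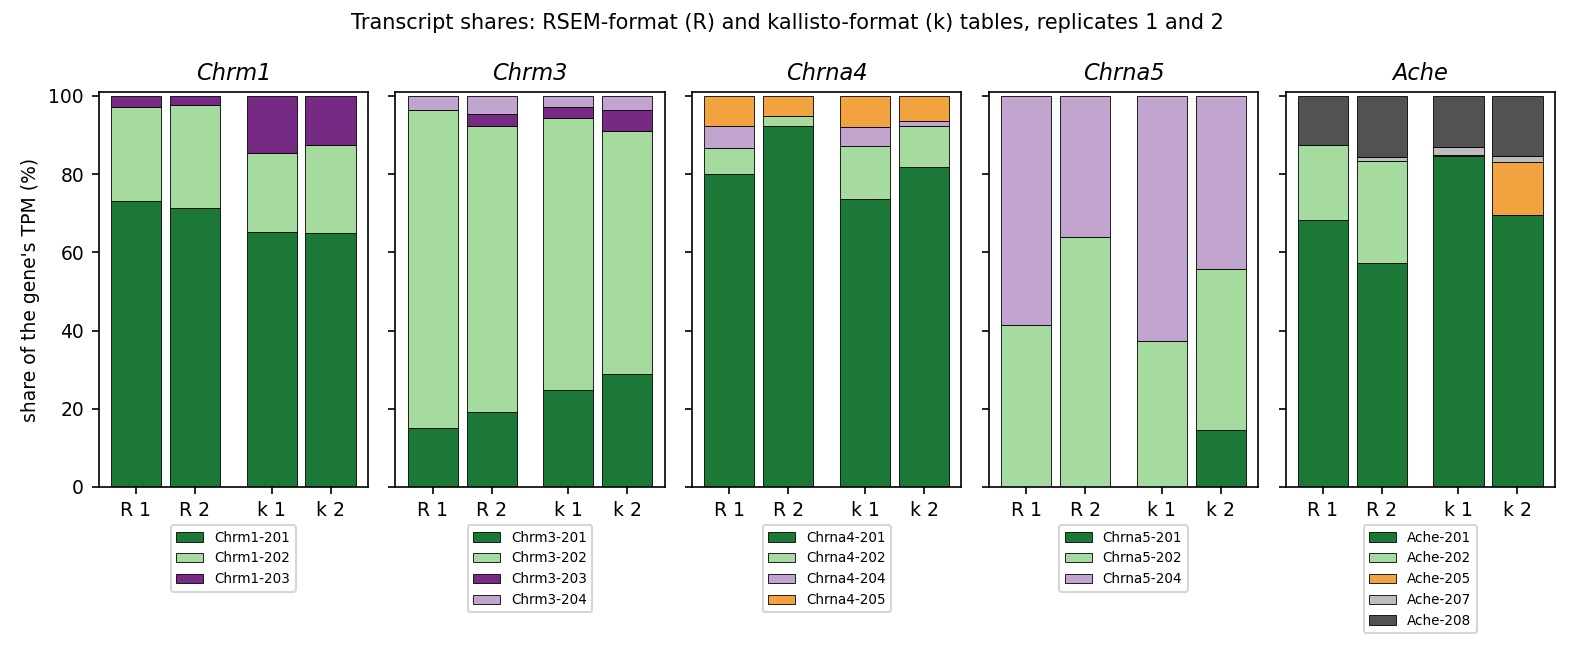
Share of its gene's TPM, in percent, that each annotated transcript took for the 5 members with the most mixed transcripts. R marks the RSEM-format and k the kallisto-format table, 1 and 2 are the replicates, and transcripts under 1% in every bar are left out. Chrna5-204 takes 58.5% in replicate 1 and 36.2% in replicate 2 of the RSEM-format table, and Ache-202 is visible only in the RSEM-format bars.

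The gene Chrna5 was split between Chrna5-202, with 41.5% in replicate 1 and 63.8% in replicate 2, and Chrna5-204, with 58.5% and 36.2%. The order of the pair was thus opposite in the animals in this table, but not in the kallisto-format table, where Chrna5-204 was ahead in both, with 62.7% against 37.3% in replicate 1 and 44.3% against 41.1% in replicate 2. The authors' posterior mean counts gave Chrna5-204 41.1 reads and Chrna5-202 12.8 reads in replicate 1, and 47.2 and 40.4 reads in replicate 2, where the posterior SD of Chrna5-202 was 15.5 reads. The order in replicate 2 is therefore not settled. Chrna5-201, which the annotation marks as the principal transcript, was listed at 0 in both, and in the kallisto-format table at 0 in replicate 1 and 14.6% in replicate 2. Chrna5-204 lacks 3 exons of Chrna5-202, with 307 coding bases, and begins the next exon 5 bases later, so its open reading frame is kept at 363 residues in place of 467. The junctions that differ are shown because they carry this distinction. The 60 bases of each transcript, 5′ to 3′ on the plus strand of chromosome 9, come from GENCODE M21, and capitals mark the bases after the junction.
Chrna5-202: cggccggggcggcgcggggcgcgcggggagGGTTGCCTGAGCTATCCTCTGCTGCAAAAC
Chrna5-204: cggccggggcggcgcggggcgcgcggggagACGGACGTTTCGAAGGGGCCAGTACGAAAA
Both leave the first exon at 54981721. Chrna5-202 joins 54998012 and Chrna5-204 joins 55004336. The cysteine codons of Chrna5 printed above lie in the exon that begins there, which both transcripts hold. Chrna5-204 is also the only annotated Chrna5 transcript that contains the last 861 bases of the annotated gene. Reads in that stretch are therefore credited to it whether or not they come from the short junction. The RefSeq gene model ends 3641 bases further downstream, and reads from that part were not counted for Chrna5. The files hold no junction counts, and the split of 171 summed reads between the transcripts was not resolved further.

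For Ache, Ache-201 took 68.2% in replicate 1 and 57.4% in replicate 2, Ache-202 19.4% and 26.1%, and Ache-208, a retained-intron transcript, 12.5% and 15.6%. Ache-201 and Ache-202 have the same 4 coding exons for 614 residues. They differ outside the coding sequence: the second exon of Ache-202 starts 3 bases earlier, at 137290009 in place of 137290012, and the transcript itself starts 7 bases later and ends 6 bases earlier. The authors' posterior SD, the uncertainty of the read assignment, was 72.3 reads for Ache-201 and 67.4 reads for Ache-202 in replicate 1, and 73.7 and 70.4 reads in replicate 2. The kallisto-format table gave Ache-202 0.0615% in replicate 1 and 0.000727% in replicate 2. The sum of the pair was steadier in the RSEM-format table, 87.5% in replicate 1 and 83.4% in replicate 2, and was 84.8% and 69.6% in the kallisto-format table, where the short partial transcript Ache-205 took 0% and 13.5%. That 13.5% rests on about 8 estimated reads on 254 bases, beside 1250 estimated reads of Ache-201 in the same library.

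Chrm1-201 took 73.1% of Chrm1 in replicate 1 and 71.2% in replicate 2, and Chrm1-202 took 23.9% and 26.6%. Chrm1-202 encodes the same 460 residues, with an added exon of 92 bases and 2020 more bases at its 3′ end. Chrm1-203, a partial transcript, took 2.96% and 2.20%, and 14.6% and 12.6% in the kallisto-format table. Chrm3-202, with 5 exons, took 81.3% of Chrm3 in replicate 1 and 73.2% in replicate 2, and Chrm3-201, which is the coding exon alone, 15.2% and 19.1%. Both encode the same receptor. Chrna4-201 took 80.0% of Chrna4 in replicate 1 and 92.2% in replicate 2, and the rest was spread over 3 further transcripts in replicate 1 and 2 in replicate 2. By reads, which are not divided by length, Chrna4-201 held 1493 of 1576 in replicate 1 and 1523 of 1551 in replicate 2.

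The receptor genes outside the list of members were low. Of 13 further subunit genes, 0 were detected in both animals, and the highest value was 0.93 TPM, of Chrm5, the fifth muscarinic receptor, in replicate 2. Together they made up 1.70% of all receptor TPM in replicate 1 and 1.82% in replicate 2. Chrna3 and Chrnb4, the ganglionic and habenular subunits, had 13 and 9 reads in replicate 1 and 20 and 5 reads in replicate 2. Chrna9, Chrnd and Chrng had 0 reads in both animals, where the floor of 3 reads applies, and Chrna1, of the muscle receptor, had 11 reads in replicate 1 and 9 in replicate 2.

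Genes of acetylcholine synthesis and transport were detected, 4 of 4, but those specific to cholinergic neurons lay well under Ache. Chat, the enzyme that makes acetylcholine, was at 2.10 TPM in replicate 1 and 2.04 TPM in replicate 2, Slc18a3, the vesicular transporter, at 1.56 and 1.69 TPM, and Slc5a7, the high-affinity choline transporter, at 2.21 and 2.44 TPM. Slc44a1, a choline transporter that many cell types use, was at 36.9 TPM in replicate 1 and 37.0 TPM in replicate 2. Ache exceeded Chat 13.1-fold in replicate 1 and 15.2-fold in replicate 2. Beside these values, the 8 markers of cholinergic neurons summed to 16.9 TPM in replicate 1 and 15.7 TPM in replicate 2, and 4 of them were at least 25% higher in replicate 1 and none in replicate 2, with Lhx8 at 2.88 and 2.36 TPM. The part of cholinergic cell bodies in the Chat level was not tested.

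The list of genes that help nicotinic receptors fold or tune them at the surface, which also holds Rcan1, was detected in full, 9 of 9. Ric3, a chaperone of the Chrna7 receptor, was at 26.8 TPM in replicate 1 and 30.2 TPM in replicate 2, and Tmem35a, another such chaperone, at 25.0 and 25.7 TPM, so both were above Chrna7. Of the Ly6 proteins, related to snake toxins, Ly6h was at 153 TPM in replicate 1 and 146 TPM in replicate 2, Ly6e at 124 and 128, Lynx1 at 86.4 and 99.5, Lypd1 at 40.9 and 42.7, Lypd6 at 7.78 and 8.74, and Lypd6b at 3.82 and 4.41 TPM. Rcan1, an inhibitor of calcineurin kept in this list, was at 22.8 TPM in replicate 1 and 23.6 TPM in replicate 2. Lynx1, which restrains receptors of Chrna4 and Chrnb2 and of Chrna7, was above each of the 4 nicotinic members in both animals. None of the genes of synthesis, transport, anchoring or folding differed by the 2-fold rule or by 25% or more.

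**Figure D5:**
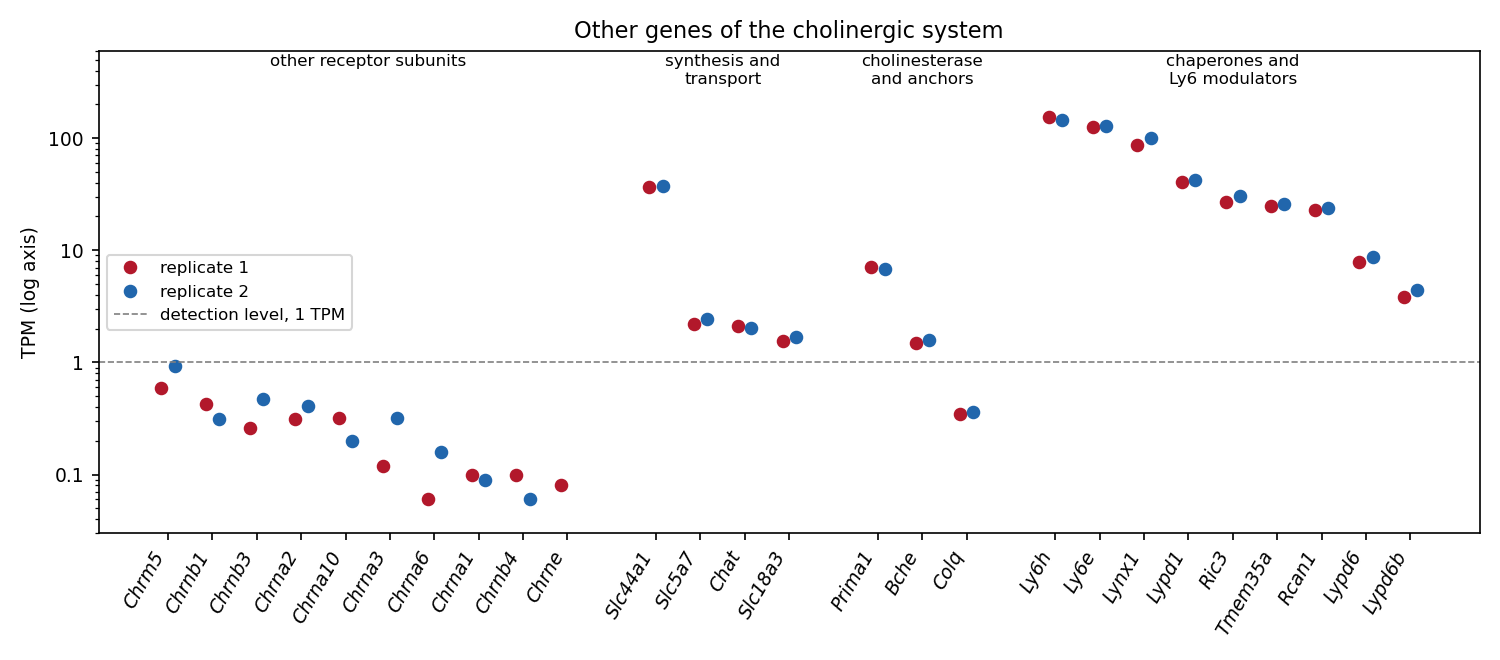
TPM of further genes of the cholinergic system on a log axis, in 4 groups, with red for replicate 1 left of blue for replicate 2 and a dashed line at 1 TPM. Chrna9, Chrnd and Chrng, at 0 in both animals, and Chrne in replicate 2, at 0, are not drawn. All further receptor subunits lie below the line, and all chaperones and Ly6 genes above it.

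With 2 libraries of 1 group, no likeness of pattern across samples can be measured, so no gene is named for following a member.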

How the data were processed

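Total RNA, 300 ng per library, was sequenced per the labels with ERCC spike-ins and ribosomal RNA reduction in a directional kit. The authors deposited RSEM-format tables with expected counts, TPM, FPKM (not used), the percent of each transcript in its gene and posterior counts with their standard deviation, and kallisto-format tables with estimated counts and TPM. A deposited text description names mm10 and annotation M21, with the aligner, versions and strand setting not given in the sources used here. Deposited expected counts were rounded, scaled by TMM (edgeR 4.0.16) with 0.5 reads added, for every gene that reached 10 reads in either library. Intervals are Clopper-Pearson and cover counting error only. SDs are over 2 animals, and the libraries differed beyond counting noise (chi-square per gene 8.99). TPM are shares of all entries, short RNAs included. DESeq2 1.42.0 size factors, spike-ins, total reads, kallisto-format values, other thresholds and single animals were alternatives. The procedure was tested on simulated data with counting noise only and with changes larger than that of any member. That test does not cover the wider spread of these libraries or smaller changes. Named genes were the 9 members, the detected genes of the cholinergic lists and all of synthesis and transport, and the 2 highest of a marker list; others named (Adar, Colq, Gng8, Gpr151, Pou4f1, Ntsr1 and undetected subunits) were chosen after their values were seen. Members and lists were chosen with earlier results of these data known. Entries that name no gene held 0.000639% and 0.00055% of reads.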

Additional observations from a re-analysis of the deposited data

How the results depend on the processing

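No paired analysis was possible because both libraries belong to 1 group. The log2 ratio of muscarinic to nicotinic summed TPM, 1.37, was 0.31 without Chrm1 and 1.89 without Chrnb2, by the weight of those genes in the sums, and between 1.31 and 1.43 with either animal alone. The number of members at least 25% apart, 2, was 1 with kallisto-format counts (Chrna5), beside 26.1% of the genes tested. The cause of that change was not tested. The number that differ, 0, was 1 at a 1.5-fold threshold (Chrna5), beside 1.78% of the genes tested. The other 20 values of these results stayed within 1.5 times or the spread between animals, but several of them could not have moved. All 9 members passed 1 TPM in both animals, so a lower detection threshold or a single animal had to give 9. Every member had more than 10 reads and none was 2-fold apart. Dropping the read minimum or loosening the interval could therefore add no member. The ratios with either animal alone are the values from which their spread was computed. Among alternative values of single genes, ratios and transcripts, 99 stayed within the spread between animals, and 21 moved beyond it. The 99 include 9 levels and 13 transcript shares with each animal left out, which lie within the spread of 2 animals by construction. The 21 include the 9 levels rescaled to nuclear protein-coding genes, which could only rise. The tally is therefore no measure of robustness. Of 45 log2 ratios under alternatives, 2 changed sign, both of members whose interval includes equal levels: Chrm3 from 0.07 to -0.01 with spike-in scaling and Chrna4 from -0.01 to 0.04 with kallisto-format counts. The order of Chrna5-202 and Chrna5-204 by mean share also turned, 52.7% and 47.3% against 39.2% and 53.5% in the kallisto-format table. Rescaling TPM to nuclear protein-coding genes raised all 9 levels (Chrm1 to 127 TPM), kallisto-format values moved 3 levels and 8 transcript shares (Ache-202 to 0.0311%), and spike-in scaling moved the log2 ratio of Chrm1 to -0.19. Over its scalings the log2 ratio of Chrm4 lay between -0.42 and -0.28 and that of Chrna5 between -0.85 and -0.60. With 2 animals the spread is poorly known, and Chrna5 is limited by 171 reads.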
